A study of Homo sapiens with 4 samples.

Results

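The alpha-arrestins TXNIP, ARRDC4, ARRDC1, ARRDC2 and ARRDC3 and the transcription factors MLXIP (MondoA), MLXIPL (ChREBP) and MLX were examined on 4 Affymetrix expression arrays of basal-like breast cancer cells. These 8 genes, of 18417 measured, were chosen by name with the FBP1 minus control differences in both lines known, those of TXNIP included. Their differences with FBP1 are thus a description and carry no test. All 8 had exactly 1 probe set annotated to a single gene, and none was left out for low intensity. The arrays measured total RNA of MDA-MB231 and Hs578T, established human breast cancer cell lines. In each line, FBP1, the gluconeogenic enzyme fructose bisphosphatase, had been expressed and stable clones selected. The groups were MDA-MB231 control, MDA-MB231 expressing FBP1, Hs578T control and Hs578T expressing FBP1, with 1 array each. All were grown in DMEM/F12 with serum and collected during logarithmic growth. How many clones stand behind an array, and whether the controls carried an empty vector, is not given in the labels, so an effect of FBP1 and a difference between clones cannot be told apart.

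MondoA and ChREBP are basic helix-loop-helix factors that bind DNA as heterodimers with MLX at carbohydrate response elements, and their activity rises with the cell's hexose phosphates. TXNIP and ARRDC4 are the best known MondoA targets. TXNIP binds and inhibits thioredoxin and promotes the internalisation of glucose transporters, and ARRDC4 also restrains glucose uptake. The other alpha-arrestins are adaptors that bring NEDD4-family ubiquitin ligases to membrane proteins.

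The FBP1 transcript checked the labels: it exceeded the control array by 3.24 log2 units in MDA-MB231 and by 7.00 in Hs578T. It read 9.83 (control) and 13.07 (FBP1) in MDA-MB231, and 6.35 (control) and 13.35 (FBP1) in Hs578T. MDA-MB231 minus Hs578T was thus 3.48 between the control arrays and −0.28 between the FBP1 arrays. Array medians lay between 7.83 and 7.86 log2. The spread over the whole table gives the scale of an ordinary difference: 95% of genes lay within 0.33 log2 of control in MDA-MB231 and within 0.48 in Hs578T. VIM, CD44 and CAV1, markers of basal and mesenchymal breast cells, stood at 13.66 to 13.92 log2 on every array, and the basal keratin gene KRT5 at 6.80 to 6.93. The 8 luminal markers were mixed. The hormone receptor genes ESR1 and PGR stood at 5.61 to 6.80, while the luminal keratin gene KRT18 stood at 12.33 to 12.71 on all 4 arrays, and KRT8 and KRT19 at 11.99 to 13.10 in MDA-MB231 and 7.92 to 9.80 in Hs578T. KRT14, another basal keratin gene, was the 1 marker of 25 measured that differed by 1.5-fold with FBP1, with −0.19 in MDA-MB231 and 0.77 in Hs578T. Its part in the other results was not tested. Of 5 leukocyte markers, the pan-leukocyte gene PTPRC was lowest, at 4.52 to 4.96, and the lysosomal gene CD68 highest, at 10.99 to 11.60. Of 5 endothelial markers, CDH5 stood at 6.84 to 7.14, and PECAM1 at 8.51 and 8.48 in MDA-MB231 and 6.81 and 6.97 in Hs578T. No difference within a line could be checked against replicates, and 4 arrays limit the precision of every value.

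The glucose-sensing factors were described first. MLXIP (Entrez gene 22877), which encodes MondoA, stood at 10.06 log2 (control) and 10.15 (FBP1) in MDA-MB231 and at 9.52 (control) and 9.61 (FBP1) in Hs578T. Its differences with FBP1 were 0.092 and 0.082. The arrays of a line were thus nearly level, and both MDA-MB231 arrays were above both Hs578T arrays. MLX (Entrez gene 6945), the obligate partner of both factors, stood at 11.49 and 11.43 in MDA-MB231 without and with FBP1 and at 10.86 and 11.06 in Hs578T. Its differences were −0.061 and 0.20. MLXIPL (Entrez gene 51085), which encodes ChREBP and is best known in liver and fat, stood at 7.81 and 7.97 in MDA-MB231 and at 7.28 and 7.06 in Hs578T, and its differences were 0.16 and −0.22. None of the 3 factors differed by 1.5-fold with FBP1 in either line, and for each of them both MDA-MB231 arrays lay above both Hs578T arrays.

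**Figure D1:**
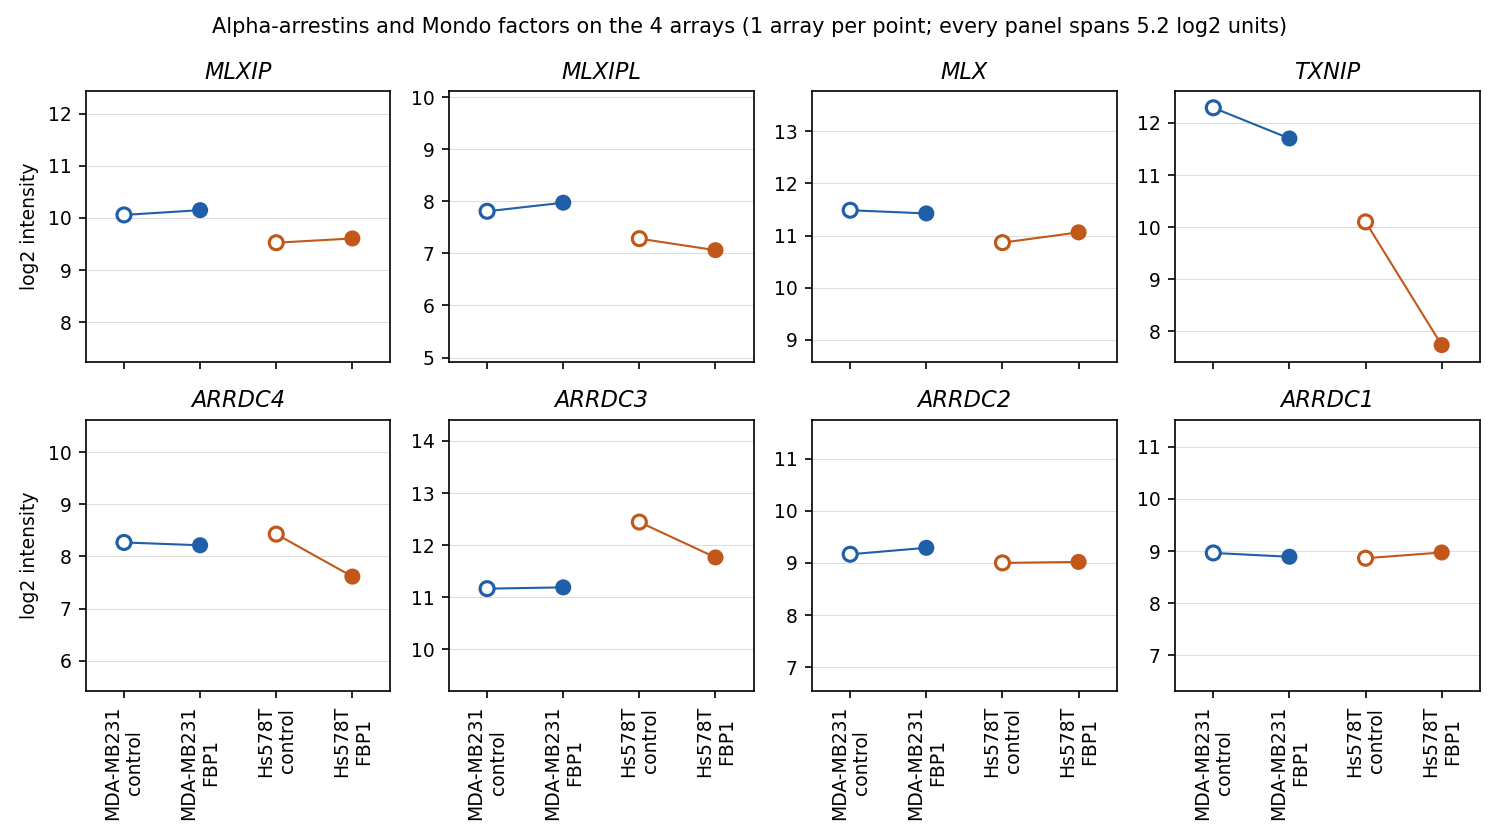
Log2 intensity of the 8 genes on each of the 4 arrays, with open circles for control and filled circles for FBP1, blue for MDA-MB231 and orange for Hs578T; lines join the arrays of a cell line and all panels cover the same range. TXNIP runs from 12.29 to 7.74, while MLXIP, MLX, ARRDC1 and ARRDC2 are nearly level within a line.

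TXNIP (Entrez gene 10628) had the widest range of the 8 genes. The MDA-MB231 arrays read 12.29 log2 without FBP1 and 11.70 with it, and the Hs578T arrays 10.10 and 7.74. The array of Hs578T with FBP1 was the lowest of the 4, and both MDA-MB231 arrays lay above both Hs578T arrays. TXNIP was 5.15-fold lower with FBP1 in Hs578T (log2 difference −2.37), where 2 of the 18417 genes had a lower value. In MDA-MB231 it was 1.504-fold lower (−0.59), just past the 1.5-fold limit of 0.585 log2, and 59 genes had a lower value. After quantile normalization the MDA-MB231 difference was −0.56 and after median centring −0.58, both short of that limit. The difference in Hs578T exceeded that in MDA-MB231 by 1.78 log2 units in the negative direction, a gap that only 16 genes surpassed. With 1 array per group this gap was not tested. In bulk RNA, fewer cells with TXNIP transcripts and fewer transcripts per cell cannot be told apart.

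ARRDC4 (Entrez gene 91947), the alpha-arrestin closest to TXNIP in regulation, was lower with FBP1 in Hs578T and nearly level in MDA-MB231. It stood at 8.27 and 8.21 in MDA-MB231 without and with FBP1, a difference of −0.054. The Hs578T arrays read 8.43 and 7.61, a level 1.76-fold lower with FBP1 (−0.82). The Hs578T FBP1 array was the lowest of the 4, and the other 3 lay between 8.21 and 8.43. In Hs578T 143 genes had a lower difference, against 6454 in MDA-MB231.

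ARRDC3 (Entrez gene 57561), an adaptor for beta-adrenergic receptors that has been studied as a suppressor in basal-like breast cancer, was likewise lower on the FBP1 array of Hs578T. Its values were 11.16 and 11.19 in MDA-MB231, a difference of 0.025, and 12.44 and 11.76 in Hs578T, which is 1.60-fold lower with FBP1 (−0.68). Unlike TXNIP, ARRDC3 was higher on both Hs578T arrays than on either MDA-MB231 array. ARRDC2 (Entrez gene 27106) stood at 9.17 and 9.29 in MDA-MB231 and at 9.0 and 9.02 in Hs578T, with differences of 0.12 and 0.019. ARRDC1 (Entrez gene 92714), which drives budding of vesicles from the plasma membrane, stood at 8.96 and 8.89 and at 8.86 and 8.97, with differences of −0.073 and 0.11. The ARRDC1 and ARRDC2 values of all 4 arrays thus lay close together.

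Counted by size, 1 of the 8 genes was at least 1.5-fold lower with FBP1 in MDA-MB231, where 0.337% of all genes were, and 0 were at least 1.5-fold higher, against 0.353% of all genes. In Hs578T 3 of the 8, all alpha-arrestins, were at least 1.5-fold lower, where 1.57% of all genes were, and 0 were that much higher, against 1.4%. TXNIP was the 1 member at least 2-fold lower in Hs578T, where 0.424% of all genes were. These shares are given for scale, since the differences with FBP1 were known before the genes were listed. The median difference of the 8 was −0.015 in MDA-MB231 and −0.10 in Hs578T, beside −0.0039 and 0.026 for all genes. The 5 alpha-arrestins had medians of −0.054 and −0.68, and the 3 factors 0.092 and 0.082. In the values as deposited, TXNIP was among 6 genes at least 1.5-fold lower in both lines, and no other member was.

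**Figure D2:**
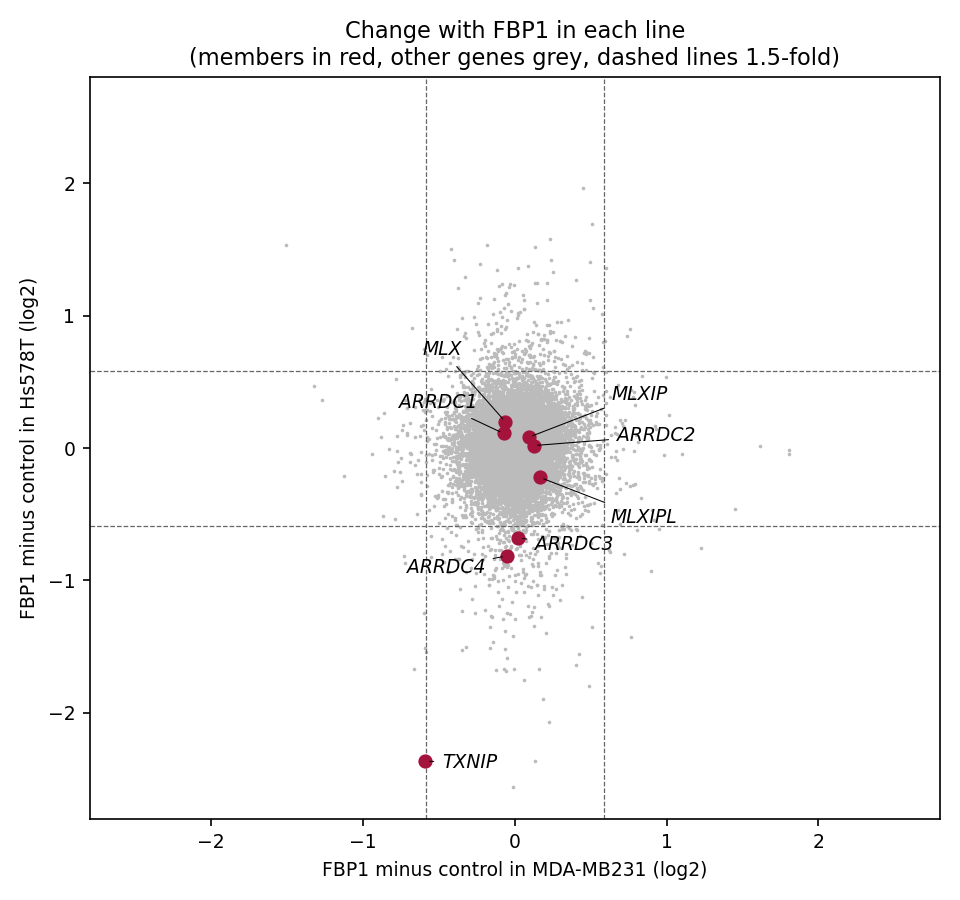
Log2 difference FBP1 minus control in Hs578T (vertical) against that in MDA-MB231 (horizontal), 1 point per gene, with the 8 members in red, other genes in grey and dashed lines at 1.5-fold; 1 gene, FBP1, lies outside the axes. TXNIP lies at −0.59 and −2.37, ARRDC4 and ARRDC3 below the lower dashed line near 0 on the horizontal axis, and the other 5 inside the dashed square.

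The region upstream of the TXNIP start is shown because it holds the paired element through which MondoA and ChREBP are known to act, and that of ARRDC4 because it is the other established MondoA target and had the second lowest difference of the 8 in Hs578T. Each is the 250 bases before the annotated start, from RefSeq on GRCh38.p14, read 5′ to 3′ on the gene's strand. TXNIP lies at chr1:145996580-145996829 on the minus strand and ARRDC4 at chr15:97960453-97960702 on the plus strand. Capitals mark a match to the paired motif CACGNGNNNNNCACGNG in TXNIP and to the E-box CACGTG in ARRDC4.
TXNIP: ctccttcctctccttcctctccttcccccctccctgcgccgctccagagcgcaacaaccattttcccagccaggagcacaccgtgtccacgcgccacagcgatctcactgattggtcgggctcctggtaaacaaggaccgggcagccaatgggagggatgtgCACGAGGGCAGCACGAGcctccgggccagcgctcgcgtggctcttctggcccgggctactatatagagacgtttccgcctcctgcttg
ARRDC4: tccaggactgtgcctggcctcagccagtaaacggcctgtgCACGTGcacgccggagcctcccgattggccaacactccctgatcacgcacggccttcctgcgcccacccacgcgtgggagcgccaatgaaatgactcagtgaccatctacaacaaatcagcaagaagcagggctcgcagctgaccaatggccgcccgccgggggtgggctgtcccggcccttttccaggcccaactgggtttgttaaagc

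The paired motif, searched on both strands, was found in TXNIP as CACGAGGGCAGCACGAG, from position −88 to −72 counted from the start. It overlaps both copies of CACGAG in that window. Of 34943 RefSeq windows of this length, 16 (0.0458%) held the paired motif, and none of the other members' windows did. The single E-box CACGTG, found in 6.32% of windows, occurred in ARRDC4 at −210 and in MLX at −50. CCAAT on either strand, found in 32% of windows, occurred in 7 of the 8 members, all but MLXIPL, with matches at −140 and −105 in TXNIP and at −187, −128 and −67 in ARRDC4. CACGAG on either strand was found in 5.58% of windows and in none of the members' windows besides that of TXNIP. All 8 genes had a window, and TXNIP, ARRDC2 and ARRDC3 had a further one for another start, 11 in all. A match describes letters and is no measure of binding.

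Of the 16 genes with the paired motif, 15 were measured. Leaving out TXNIP, the other 14 lay between −0.22 and 0.19 in MDA-MB231, where 3 were below 0, and between −0.50 and 0.25 in Hs578T, where 7 were below 0. Their medians were 0.031 and −0.0034, beside −0.0039 and 0.026 for all genes. Of all 18417 genes, 9448 were below 0 in MDA-MB231 and 8125 in Hs578T. P4HA1, a subunit of collagen prolyl hydroxylase, was the lowest of the 14 in both lines, at −0.22 and −0.50, the latter outside the 0.48 that held 95% of genes. GFPT1, the entry enzyme of the hexosamine pathway, stood at −0.097 and −0.27. P4HA1 and GFPT1 were named after their values were seen.

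The cell lines were then compared with limma over both constructs. The estimate for TXNIP uses the low Hs578T FBP1 array that led to its choice, so it is given as a description with no p-value. TXNIP stood higher in MDA-MB231 by 3.08 log2 units, which is 8.45-fold, with a standard error of 0.37 that limma draws toward the spread of all genes. Between the control arrays the gap was 2.19 log2 (4.56-fold) and between the FBP1 arrays 3.97 (15.6-fold). These gaps lie farther apart than that error shows. Of all genes, 248 differed more between the lines. For the other 7 the line difference was tested, although the residual of that fit is the gap between the FBP1 differences of the lines. The 3 factors were higher in MDA-MB231: MLXIP by 0.54 ± 0.099 (SE; limma adjusted p = 0.00774), MLXIPL by 0.72 ± 0.13 (limma adjusted p = 0.00705) and MLX by 0.49 ± 0.10 (limma adjusted p = 0.0114). ARRDC3 was the 1 member higher in Hs578T, by 0.93 on the log2 scale (MDA-MB231 minus Hs578T −0.93 ± 0.16 SE, limma adjusted p = 0.00661). ARRDC4 (0.22 ± 0.19), ARRDC2 (0.22 ± 0.10) and ARRDC1 (0.0096 ± 0.11) did not pass, with limma adjusted p of 0.421, 0.164 and 0.960.

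Thus, leaving out TXNIP, 3 of 7 genes were called higher in MDA-MB231, where 19% of all genes were, and 1 in Hs578T, where 16.9% were. The arrays of a line differ in construct, so the p-values cover only the spread between these 4 arrays. That spread was taken mostly from all genes (prior of 5.09 degrees of freedom) and less from the gene itself (1 residual degree). With line as the only term and the MDA-MB231 control array left out, ARRDC3, MLX and MLXIP were no longer called. Without the MDA-MB231 FBP1 array, none of ARRDC3, MLX, MLXIP and MLXIPL was called. Over all genes, too, fewer were called in these fits than with 4 arrays. In that order, ARRDC3 stood at −0.91 and −0.94, and MLX at 0.46 and 0.52. MLXIP stood at 0.58 and 0.49, and MLXIPL at 0.80 and 0.64. Leaving out either Hs578T array kept the direction of these genes. In each of these fits 1 line has a single array, so line and construct cannot be fully told apart. The TXNIP difference was 4.26 without the Hs578T control and 1.90 without the Hs578T FBP1 array. ARRDC4 stood at 0.63 without the Hs578T control array, where its low FBP1 array is the only Hs578T array. It stood at −0.19 without the Hs578T FBP1 array.

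**Figure D3:**
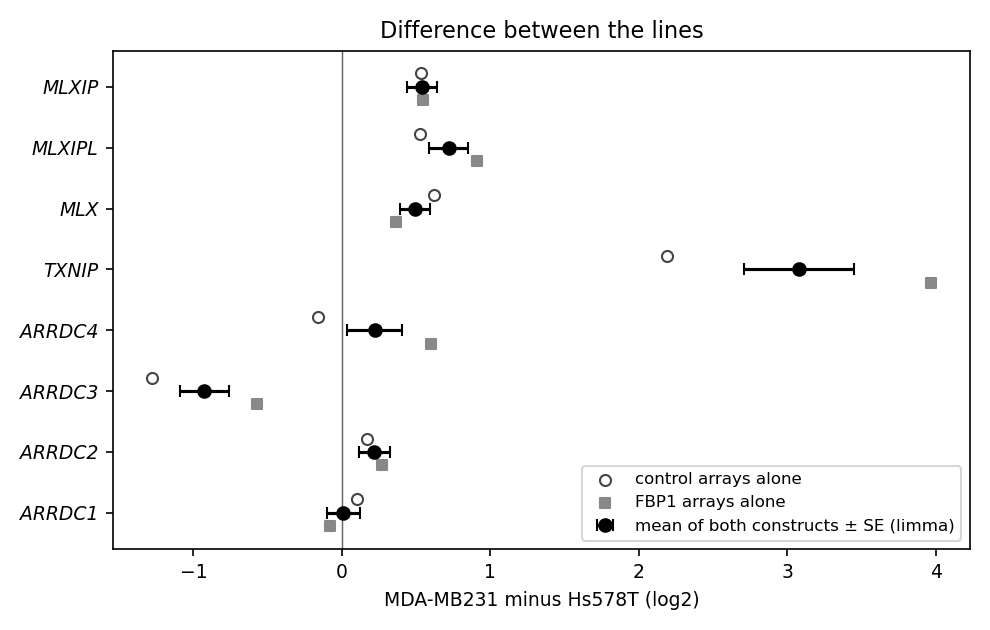
Difference between the lines, MDA-MB231 minus Hs578T in log2, for each of the 8 genes: black points are the limma estimate over both constructs with its standard error, open circles the control arrays alone and grey squares the FBP1 arrays alone. TXNIP lies at 3.08, the 3 factors at 0.49 to 0.72, ARRDC3 at −0.93, and ARRDC4 has opposite signs in the control (−0.16) and FBP1 (0.60) arrays.

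Of 20 other measured target genes of MondoA and ChREBP, 0 were at least 1.5-fold lower in Hs578T, beside 1.57% of all genes, and 0 were that much higher, beside 1.4%. In MDA-MB231 1 was lower, beside 0.337% of all genes, the desaturase gene SCD (−0.62 in MDA-MB231 and 0.17 in Hs578T). The list median was −0.094 in MDA-MB231 and 0.074 in Hs578T, beside −0.0039 and 0.026 for all genes. In MDA-MB231 15 of the 20 lay below 0, a larger share than the 9448 of all 18417 genes, which was not tested. In Hs578T 12 lay above 0, beside 10280 of all 18417 genes. KLF10, a glucose-responsive repressor, stood at −0.093 and −0.38, HK2, a hexokinase gene, at 0.44 and −0.0067, and FGF21, a ChREBP-induced hormone gene, at 0.082 and 0.21. The 20 genes read from 5.04 to 14.06 log2. The lowest lay under 6.16, the 25th percentile of probe set means, and FGF21 read 6.82 to 7.08. Low readings leave little room for a fall. In the contrast between lines, 4 of the 20 were called higher in MDA-MB231 and 2 in Hs578T, beside 19% and 16.9% of all genes. PNPLA3, a lipid droplet gene, was higher in MDA-MB231 by 1.32 (limma adjusted p = 0.000968).

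In the wider MAX and MLX network, 0 of 10 genes differed by 1.5-fold in either line, with medians of −0.076 and 0.0076. Of all genes, 0.337% were that much lower and 0.353% higher in MDA-MB231, and 1.57% and 1.4% in Hs578T. MXD4 and MXD1, whose proteins antagonise MYC and can pair with MLX, stood at −0.24 and −0.46 and at −0.13 and −0.28. MXD3, another member of that family, stood at −0.14 and −0.044, and MYCN at 0.061 and 0.12. MYC was nearly level with FBP1, at −0.023 and 0.079, and was called higher in MDA-MB231 (0.51, limma adjusted p = 0.00518).

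The thioredoxin system, whose redox protein TXNIP inhibits, had 2 of 14 measured genes at least 1.5-fold lower in Hs578T and 0 in MDA-MB231, beside 1.57% and 0.337% of all genes. The 2 were SRXN1, which reactivates peroxiredoxins (0.030 and −0.81), and TXNRD1, the cytosolic thioredoxin reductase (0.052 and −0.62). Its mitochondrial counterpart TXNRD2 stood at 0.20 and 0.57, and PRDX4, a peroxiredoxin of the endoplasmic reticulum, at −0.095 and −0.16. Thioredoxin itself, TXN, stood at 11.92, 11.84, 11.96 and 11.86 log2 in the MDA-MB231 control and FBP1 arrays and then the Hs578T pair, and was nearly level. The list medians were −0.021 and −0.11.

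Among 24 measured genes of glucose transport and hexose phosphate metabolism, 2 were at least 1.5-fold lower in Hs578T and 0 in MDA-MB231. Of all genes, 1.57% and 0.337% were that much lower. The 2 were the neuronal-type glucose transporter gene SLC2A3 (0.067 and −0.96 in MDA-MB231 and Hs578T) and the inositol transporter gene SLC2A13 (0.17 and −0.96). FBP1 was the 1 gene at least 1.5-fold higher in either line, beside 1.4% of all genes in Hs578T and 0.353% in MDA-MB231. SLC2A1, the widely expressed glucose transporter and a TXNIP cargo, stood at −0.024 and 0.31, and PFKFB4 at −0.35 and −0.24. The list medians were 0.065 and −0.042. In the contrast between lines 13 of the 24 were called higher in MDA-MB231 and 3 in Hs578T, beside 19% and 16.9% of all genes. SLC2A3 (3.12, limma adjusted p = 0.000212) and SLC2A1 (1.35, limma adjusted p = 0.000165) were among those higher in MDA-MB231.

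The 9 NEDD4-family ligase genes, 6 other arrestin-fold genes, 7 cargo and partner genes and 7 AMPK subunit genes included 0 that were 1.5-fold higher or lower in either line. Of all genes, 1.57% were that much lower and 1.4% higher in Hs578T, and 0.337% and 0.353% in MDA-MB231. The 7 cargo and partner genes all lay above 0 in Hs578T, where 10280 of 18417 genes did, with a median of 0.25 beside 0.026 for all genes. Their median in MDA-MB231 was −0.024. They included SLC2A4 (0.39) and the receptor gene NOTCH1 (0.33). HECW1, a ligase gene, stood at 0.0076 and −0.46, and VPS26B, a retromer subunit with an arrestin fold, at 0.31 and −0.44. PRKAA2 and PRKAG2, which encode AMPK subunits, stood at 0.39 each in Hs578T. ITGB4, an integrin chain that ARRDC3 binds, was called higher in MDA-MB231 (3.63, limma adjusted p = 9.56e-06).

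Of the NLRP3 inflammasome list, to which TXNIP has been linked, 2 of 7 genes were at least 1.5-fold higher in Hs578T and 1 in MDA-MB231, beside 1.4% and 0.353% of all genes. These were the cytokine gene IL1B (0.60 in MDA-MB231 and 1.36 in Hs578T) and CASP1, its processing protease (−0.019 and 0.69). NLRP3 stood at 0.26 and 0.20 and IL18 at 0.34 and 0.16, and the list medians were 0.0049 and 0.34, beside −0.0039 and 0.026 for all genes. IL18 read only 3.92 and 4.09 log2 in Hs578T, and CASP1 5.99 and 5.98 in MDA-MB231. These levels lie under 6.16, the 25th percentile of probe set means. Of 7 stress and growth-arrest partners of TXNIP, 1 was at least 1.5-fold lower in Hs578T and 0 in MDA-MB231, beside 1.57% and 0.337% of all genes. It was DDIT4, an mTORC1 inhibitor that TXNIP binds (−0.20 in MDA-MB231 and −1.22 in Hs578T). CDKN1B stood at −0.065 and −0.099 and HIF1A at −0.064 and −0.087.

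**Figure D4:**
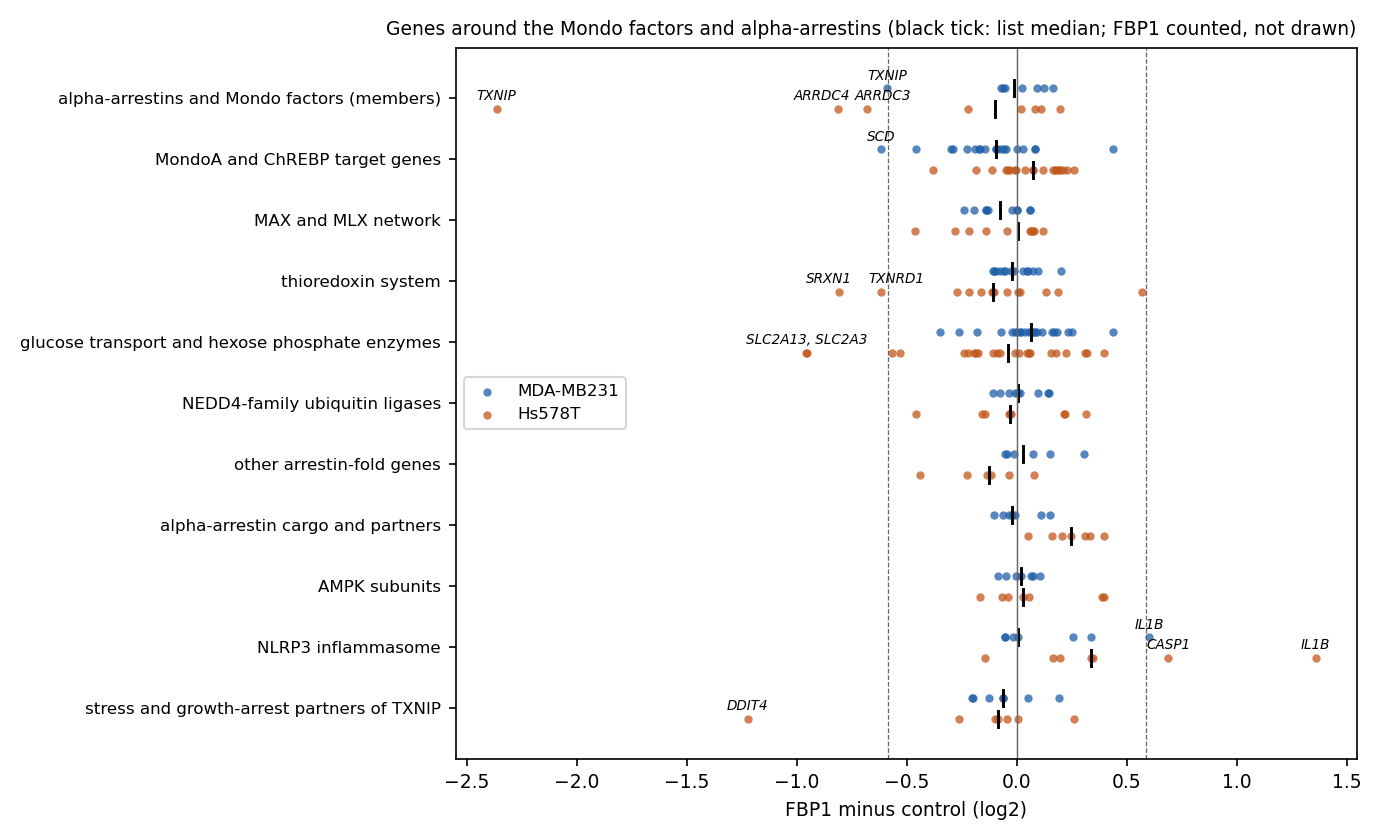
Log2 difference FBP1 minus control for every measured gene of 11 lists, MDA-MB231 in blue and Hs578T in orange, with black ticks at list medians and dashed lines at 1.5-fold; genes past the lines are named and FBP1 is off the scale. TXNIP (−2.37), IL1B (1.36) and DDIT4 (−1.22) in Hs578T stand farthest from 0.

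Genes whose pattern over the 4 arrays was most like that of TXNIP were sought by the Euclidean distance between values centred on each gene's mean. Only genes with a mean log2 at or above the 25th percentile of gene means were searched. The nearest were UGT8 (0.91 log2 units away), MCTP1 (0.94), NEO1 (0.96), B4GALT6 (0.97) and SLC1A3 (1.04). All 5 were higher in MDA-MB231 and lower with FBP1 in Hs578T, with differences of −0.93 to −1.28. On the Hs578T FBP1 array they read 6.16 to 6.97 log2, beside 7.74 for TXNIP. The 25th percentile of probe set means was 6.16, so these genes had little room to read lower. In MDA-MB231 only SLC1A3, a glutamate transporter gene, came near the TXNIP difference, at −0.44, and the other 4 lay between −0.049 and 0.11. The genes nearest to ARRDC4 were NIBAN1 (0.13), ZNF816 (0.14) and CHMP1B, SSBP3 and ZFTRAF1 (0.15 each), with Hs578T differences of −0.60 to −0.69. Distances were not scaled to the size of a pattern, so those of TXNIP and ARRDC4 cannot be set against each other. A likeness over 4 arrays is a description.

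**Figure D5:**
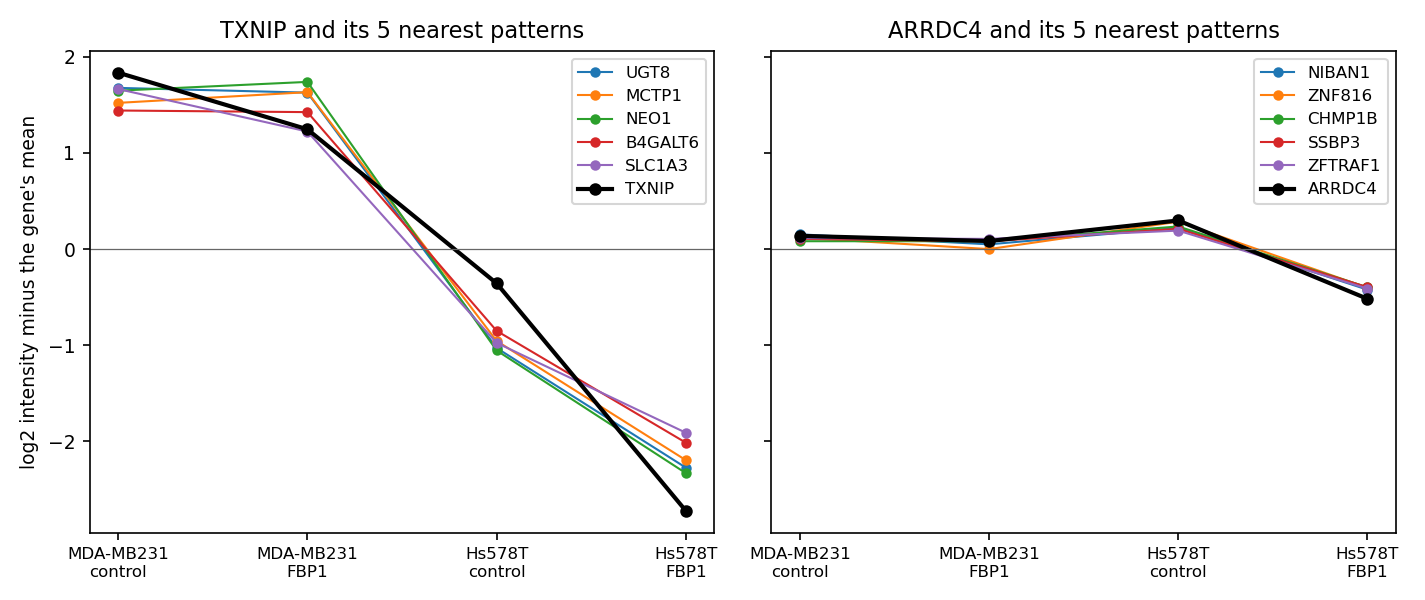
Log2 intensity minus each gene's mean over the 4 arrays for TXNIP (left, black) and ARRDC4 (right, black) with the 5 nearest genes in colour. On the left, the centred value of TXNIP ends below those of all 5 neighbours in Hs578T with FBP1. Its distances to them are 0.91 to 1.04 log2 units. On the right, the distances are 0.13 to 0.15.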

How the data were processed

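The members and gene lists were chosen with earlier results of these data known. The authors deposited log2 intensity values of 33297 probe sets on 4 arrays. They used Affymetrix Expression Console 1.1.2800.28061, per the submitters' processing notes. The methods of summarization and normalization were not given in the sources used here. That they are log2 was read from their range (2.40 to 14.81). Scaling between arrays would hide a change in total RNA per cell.

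The platform annotation named the probe sets: 19460 had 1 gene, 1754 several and 12083 none. Only the first were used, with the highest-mean probe set per gene and no intensity filter, which gave 18417 genes. Within a line, FBP1 minus control was taken as a difference of 1 array each, without a test, and counted at 1.5-fold and 2-fold. The lines were compared by a limma fit (version 3.58.1, R 4.3.3) on line and construct, with an intensity trend, 1 residual degree of freedom and a prior of 5.09. Benjamini-Hochberg was applied over all genes, called at 0.05. The fit was also run on simulated data. Every gene there had noise of the same size and no construct effect, so that run does not test the p-values given here. Named genes were the 8 members, FBP1, list members past 1.5-fold, up to 4 per list by mean change or line difference, and the 5 nearest patterns of TXNIP and ARRDC4. The nearest patterns were sought only among genes with a mean at or above the 25th percentile of gene means. TXN and some cell type markers were added as reference points. Promoter windows came from RefSeq (GRCh38.p14). Alternatives covered an intensity filter, quantile normalization, median centring, averaged probe sets, the trend, the construct term and left-out arrays.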

Additional observations from a re-analysis of the deposited data

Results flagged for a closer look

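4 of the 8 genes had differences with FBP1 of opposite sign in the lines, as 8966 of 18417 genes (48.7%) had. The MDA-MB231 and then the Hs578T value was −0.073 and 0.11 for ARRDC1. ARRDC3 stood at 0.025 and −0.68, MLXIPL at 0.16 and −0.22, and MLX at −0.061 and 0.20. These opposite signs rest on 1 array per group and were not tested.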

How the results depend on the processing

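The differences with FBP1 of all 8 genes in both lines moved by less than the median absolute difference of all genes (0.091 log2 in MDA-MB231, 0.12 in Hs578T) under quantile normalization and median centring. The intensity filter and averaged probe sets could not move them, since each gene has 1 probe set and passed the filter. In MDA-MB231, TXNIP ranged from −0.59 to −0.56 and fell short of the 1.5-fold limit under both normalizations. In Hs578T it ranged from −2.38 to −2.36. The counts of genes past 1.5-fold stayed within 1.5 times under all 4 settings. For the contrast between lines, leaving out 1 array with line as the only term gave 1721 to 3797 genes called higher in MDA-MB231 and 1593 to 3372 in Hs578T, and a TXNIP difference of 1.90 to 4.26. In these fits the lone array is assumed to vary like the others. ARRDC3, MLXIP, MLXIPL and MLX kept their calls under both normalizations, no trend and no construct term. The sign of ARRDC4 turned without the Hs578T FBP1 array; left-out arrays gave it −0.19 to 0.63. That of ARRDC1 turned with quantile normalization (−0.0043) and median centring (−0.012), and left-out arrays gave it −0.046 to 0.065. The cause was not tested. The labels give no replicate numbers; the fit on line and construct pairs the arrays by construct.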
